A study of Arabidopsis thaliana with 2 samples.

Results

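Peaks in the list deposited for the HA-tagged transcription factor ATAF1 lay on 4 genes described here. These were 3 genes of nitrogen use, NIA1 (AT1G77760), BT1 (AT5G63160) and PTR2 (AT2G02040), and the SUMO ligase gene SIZ1 (AT5G60410). They were chosen from the deposited peak list because its overlap column names them, so that they carry a peak is the choice itself and is given no test. Together they hold 5 of the 439 peaks listed, 1 each on NIA1, BT1 and PTR2 and 2 on SIZ1. Of all 27444 nuclear protein-coding genes, the overlap column names 1.05%, or 1.07% with the genes in hand-written notes. ATAF1 is a NAC-domain transcription factor of Arabidopsis thaliana. The ATAF1-HA plants carried an HA-tagged ATAF1 under the constitutive 35S promoter (35S:ATAF1-HA) in the Col-0 ecotype, and the wild-type plants were untagged Col-0. Rosettes of both were 5 weeks old and came from soil-grown plants kept at 21 °C with 8 h of light a day. An anti-HA antibody was used to pull down chromatin from both, and 10 ng of DNA from each went into 1 library per genotype. With the 35S promoter, positions were read at a level and in cells that the gene's own promoter need not give. There is no replicate, the list does not say from which library its reads come, and the depth of either library is unknown, so that intervals below cover counting error alone and nothing was tested between genotypes.

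Plants take up nitrate from the soil and reduce it in the cytosol to nitrite with nitrate reductase, the step that commits nitrate to assimilation. NIA1 encodes a nitrate reductase, beside its paralog NIA2. BT1 encodes a protein with a BTB domain, which joins cullin-type ubiquitin ligases, and a TAZ domain, and with its paralog BT2 it is known to lower nitrogen use efficiency and nitrate uptake. PTR2, also called NPF8.3, belongs to the NRT1/PTR family and carries dipeptides across membranes. SIZ1 encodes an E3 ligase that attaches the small protein SUMO to its targets, among them both nitrate reductases of Arabidopsis, and siz1 mutants are known for dwarf growth and changed nutrient and stress responses.

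The 5 peaks held from 99 reads on PTR2 to 769 on SIZ1, against a median of 215 and extremes of 78 and 6061 over the 439 listed peaks. Both SIZ1 peaks, NIA1 and BT1 lay above that median and PTR2 lay below it. The deposited false discovery rate (FDR), the authors' value for each peak in percent, was under 1% for NIA1 and SIZ1 peak 1 and over 3% for BT1, PTR2 and SIZ1 peak 2. With an FDR under 1% required, 2 of the 4 genes had a peak, against 0.492% of all nuclear protein-coding genes. With a p-value of at most 0.05 required, all 4 had one, against 1.02%; nothing is read from these counts, since the genes were chosen by their peaks. The highest FDR in the list was 4.99%, and since no peak with a higher FDR is listed, no values just above it can be given.

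**Figure D1:**
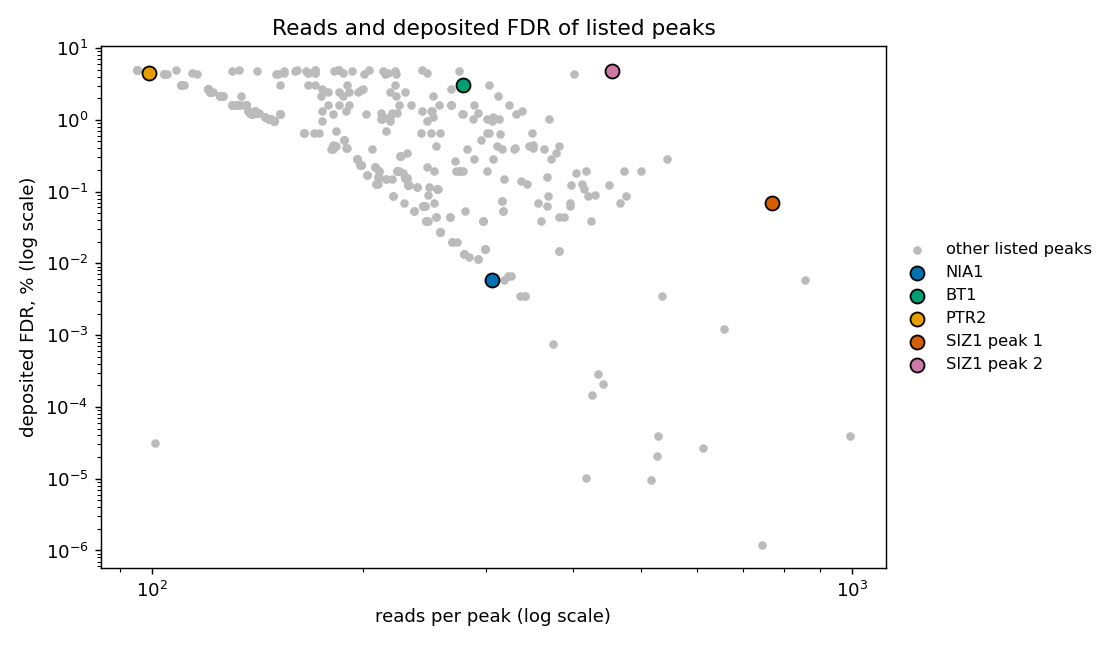
Reads per peak (x axis, log scale) against the deposited FDR in percent (y axis, log scale) for 427 of the 439 peaks; 12 with an FDR below 1e-06% are not drawn. Grey points are the other listed peaks and coloured points the 5 peaks on NIA1, BT1, PTR2 and SIZ1; NIA1 lies near the lower edge of the cloud, while SIZ1 peak 2 lies at the top with 454 reads.

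NIA1, the nitrate reductase gene, had the lowest FDR of the 5 peaks. Its peak lay at chromosome 1, 29237886 to 29237908 on the TAIR 9 build, and was 22 bp long, counted as end minus start as in the list. It held 306 reads (95% Poisson interval 273 to 342), of which 151 were forward and 155 reverse. The forward share was thus 49.3% (exact binomial 95% interval 43.6 to 55.1), an even split, and 427th place among 439 by strand imbalance. The deposited FDR was 0.00592% and the deposited p-value was 0, as in 373 peaks of the list. By reads the peak ranked 87, and by FDR it ranked 30. Among peaks on protein-coding genes with the closest read totals, that on the receptor-like kinase gene RLK902 (AT3G17840) also held 306 reads and had the same FDR, but was split into 181 forward and 125 reverse reads. The other, on the aldehyde oxidase gene AO4 (AT1G04580), held 307 reads with an FDR of 1.08%.

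The list names NIA1 itself as the gene on the 3′ side, with no distance, and AT1G77750 as the gene on the 5′ side at 6362 bp. In the RefSeq gene table AT1G77750 is also the locus that comes just before NIA1. The nearest other peaks were 96394 bp away on AT1G78010 (98 reads) and 662352 bp away on the enoyl-CoA hydratase gene ECH2 (AT1G76150, 251 reads). The gap to ECH2 was longer than 90.6% of the 434 gaps between successive peaks, whose median was 167726 bp. NIA1 is 1 of 22 peaks whose overlap text lacks the entry "ChIP peak" that the rest carry, and the list does not say what that entry marks.

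BT1, the BTB and TAZ domain gene, had a read total close to that of NIA1 and an FDR far above it. Its peak lay at chromosome 5, 25335085 to 25335115, and was 30 bp long. It held 278 reads (95% Poisson interval 246 to 313), with 168 forward and 110 reverse. Forward reads were the majority, at 60.4% (exact binomial 95% interval 54.4 to 66.2). The FDR was 3.05%, rank 367 of 439, although the peak ranked 116 by reads; the deposited p-value was 0. Peaks with the closest totals on protein-coding genes had lower values, with 278 reads and an FDR of 1.19% on AT2G17930 and 279 reads and an FDR of 0.0136% on AT3G05810. A read total near 278 therefore stood beside FDR values that differed widely.

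The gene listed on the 5′ side of the BT1 peak was AT5G63150, at 4241 bp, and BT1 itself was listed on the 3′ side. The RefSeq table places AT5G63150 just before BT1 and AT5G63170 just after it. A hand-written note beside this peak repeats the locus AT5G63160. The nearest other peaks were 119653 bp away on AT5G63580 (167 reads), which the list calls FLS2, and 452385 bp away on the MEI2-like gene ML1 (AT5G61960, 275 reads).

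PTR2, the dipeptide transporter gene, had the weakest peak of the 5 by reads. It lay at chromosome 2, 487982 to 488075, and its length of 93 bp was rank 32 of 439. It held 99 reads (95% Poisson interval 80.5 to 121), and 2.97% of the other peaks held fewer. Only 28 reads were forward and 71 were reverse, a forward share of 28.3% (exact binomial 95% interval 19.7 to 38.2). This was the most uneven split of the 5 peaks and rank 19 by strand imbalance in the list. The FDR was 4.52%, rank 391, and the deposited p-value was 5.77e-15. The closest peaks on protein-coding genes, on SYNC3 (AT1G70980) and on AT2G07768, also held 99 reads, and both had the FDR of the PTR2 peak. Their forward reads numbered 58 and 74.

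The list gives no gene on the 5′ side of the PTR2 peak, as for 151 peaks, and its 3′ entry, AT2G23140, is 9357618 bp away. In the RefSeq table the protein-coding gene AT2G02050 directly follows PTR2. A hand-written note gives the locus AT2G02040. Such notes name a locus at 9 peaks, 2 of them the BT1 and PTR2 peaks, and at 4 of the 9 the note repeats the overlapped locus. The PTR2 peak had close neighbours in the list, at 36277 bp on the tetraspanin gene TET14 (AT2G01960, 317 reads, FDR 0.0533%) and at 30456 bp on the zinc finger gene IDD4 (AT2G02080, 266 reads, FDR 0.0447%). Both neighbours held more reads than PTR2 and had a lower FDR.

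**Figure D2:**
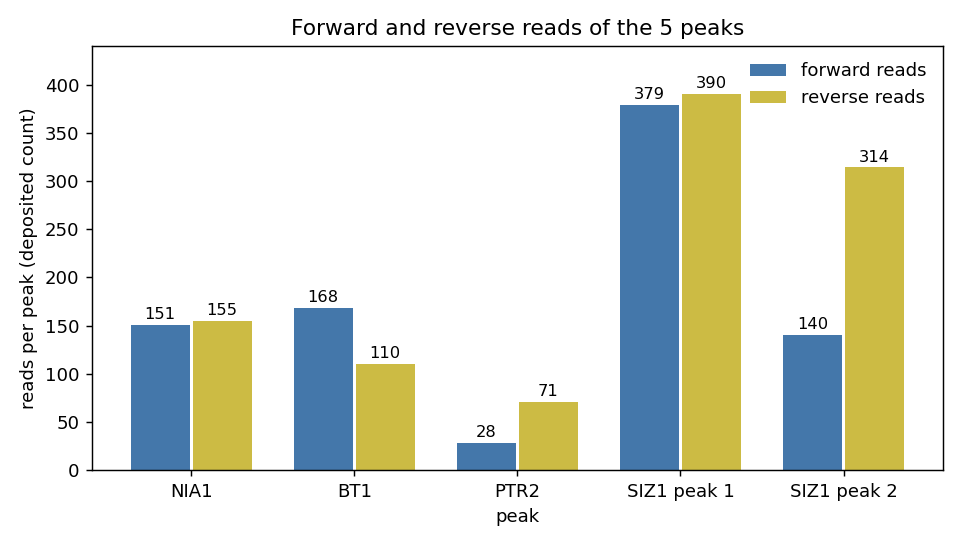
Forward (blue) and reverse (yellow) reads, as deposited, for the 5 peaks; each bar is a single count with no replicate. NIA1 (151 and 155) and SIZ1 peak 1 (379 and 390) are even, BT1 has more forward reads (168 and 110), and PTR2 (28 and 71) and SIZ1 peak 2 (140 and 314) have more reverse reads.

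SIZ1, the SUMO ligase gene, carried a pair of peaks that differed in length, reads, strand split, FDR and p-value. Peak 1 lay at chromosome 5, 24296482 to 24296954, and peak 2 at 24299612 to 24299627. Peak 1 was 472 bp long, rank 4 of the list by length, and held 769 reads (95% Poisson interval 716 to 825), rank 13. Peak 2 was 15 bp long, rank 395, and held 454 reads (95% Poisson interval 413 to 498), rank 26. Peak 1 thus had 1.69 times the reads of peak 2 over 31.5 times the length.

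By reads per base of peak length the order turned. Peak 2 had 30.3 reads per base, rank 32 in the list, and peak 1 had 1.63, rank 405, against a list median of 5.28. Peaks with a listed length of 0 bp held from 204 to 343 reads, so that length is not the stretch over which reads were counted. Reads per base is thus a ratio of listed values and not a read density. A short listed length, such as the 15 bp of peak 2, raises it by construction. Reads were counted once per peak, so how those of peak 1 lie over its 472 bp is unknown. On the scale of reads per base, NIA1 (13.9) and BT1 (9.27) were also above the list median and PTR2 (1.06) below it.

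The strands differed as well. Peak 1 had 379 forward and 390 reverse reads, a forward share of 49.3% (exact binomial 95% interval 45.7 to 52.9). Peak 2 had 140 forward and 314 reverse reads, a share of 30.8% (26.6 to 35.3), so reverse reads were 2.24 times the forward ones. These intervals take each read as independent, which was not checked, and no test was made between the peaks. The FDR was 0.0698% at peak 1 and 4.85% at peak 2. The deposited p-value was 1.55e-15 at peak 1 and 0.594 at peak 2, which is 1 of 24 peaks in the list above 0.05. Among peaks on protein-coding genes, those with read totals closest to peak 2 had lower values of both, 466 reads with an FDR of 0.0690% on AT5G06800 and 441 reads with an FDR of 0.00021% on the transporter gene ABCA6 (AT3G47770), each with a p-value of 0. Again among peaks on protein-coding genes, those closest to peak 1 in reads were on AT4G01985 (657 reads, FDR 0.0012%) and on the chloroplast protein translocation gene SECA2 (AT1G21650, 883 reads, FDR 5.48e-28%).

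**Figure D3:**
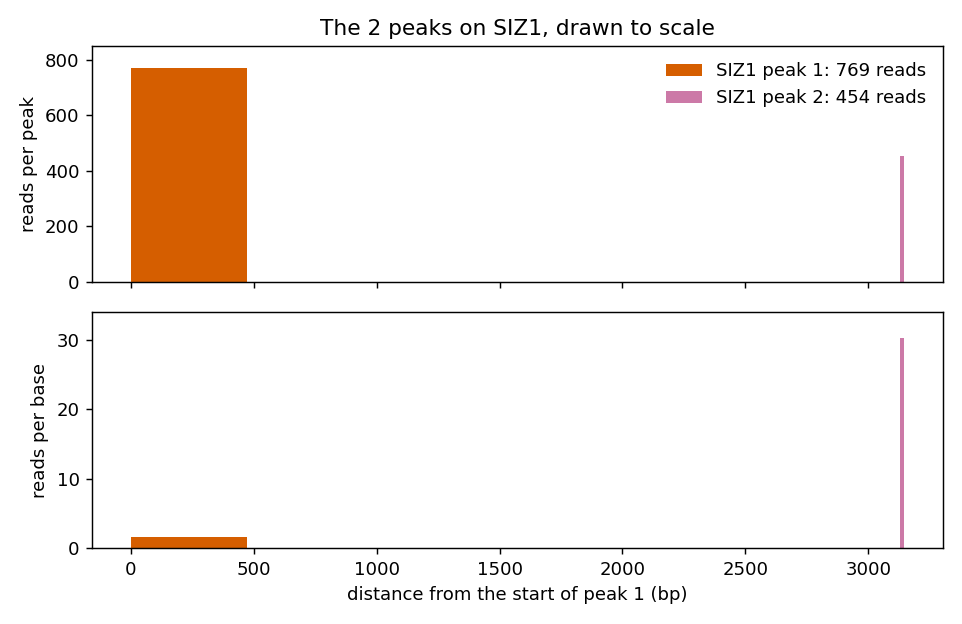
The pair of SIZ1 peaks drawn to scale, by distance in bp from the start of peak 1 (x axis); bar width is peak length and bar height is reads per peak above and reads per base below. Peak 1 is broad, with 769 reads and 1.63 reads per base; peak 2, 15 bp wide, has 454 reads and 30.3 reads per base.

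The SIZ1 peaks were separated by 2658 bp and spanned 3145 bp from the start of peak 1 to the end of peak 2. Of the 434 gaps between successive peaks, 18 were no longer than this one. SIZ1 was 1 of 5 protein-coding genes with 2 peaks. The phospholipase D gene PLDBETA1 (AT2G42010) had a gap of 2538 bp, and the gaps at AT1G40104, AT2G07981 and AT3G20350 were 1212, 869 and 850 bp. Among these 5 genes the FDR of the pair lay on either side of 1% at SIZ1, AT1G40104 and AT2G07981, and under 1% for both peaks at PLDBETA1 and AT3G20350. A p-value above 0.05 at 1 peak of the pair was found at the same 3 genes. At SIZ1 and AT1G40104 this was the peak with the higher FDR. At AT2G07981 it was the peak with the lower FDR, 0.196% with a deposited p-value of 0.782.

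For both SIZ1 peaks the list gives AT5G58390 on the 5′ side, at 695157 and 698287 bp, and AT5G63040 on the 3′ side, at 991191 and 988518 bp. The distances shift between the peaks by 3130 and 2673 bp, which equal the distances between the starts and between the ends of the peaks. These entries are not the adjacent genes, since the RefSeq table has the microRNA gene MIR391 (AT5G60408) just before SIZ1 and AT5G60430 just after it. In 314 of the 439 peaks both neighbour entries were empty or more than 20000 bp away. The next peak before the pair lay 60695 bp off on AT5G60190 (134 reads) and the next after it 246302 bp off on AT5G60980 (178 reads).

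Gene length differed among the members. In the RefSeq table SIZ1 is 6454 bp long, longer than 97.6% of the other protein-coding genes, and NIA1 (3764 bp) is longer than 85.9%. PTR2 (2544 bp) and BT1 (2399 bp) are longer than 64.0% and 59.9%. The median was 2760.5 bp over the 288 protein-coding genes that a peak overlaps and 2078 bp over all 27444 nuclear ones. The part of gene length in whether a gene carries a peak, or 2 peaks, was not tested.

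The place of each peak in the list rested on how reads were counted for SIZ1 peak 1 above all. By total reads 97.3% of the other peaks were lower than SIZ1 peak 1, and by reads per base 7.76% were. SIZ1 peak 2 was above 94.3% by total reads and above 83.3% by the lower of its strand counts. NIA1 stayed between 79.9% and 86.5%, BT1 between 68.0% and 76.6% and PTR2 between 0.685% and 4.14% over the measures tried.

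**Figure D4:**
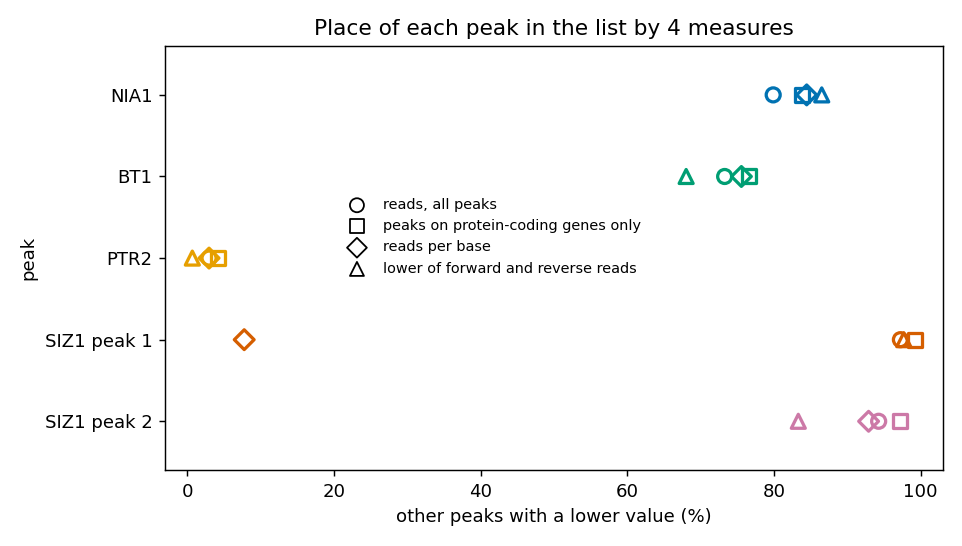
Share of other listed peaks with a lower value (x axis, percent) for each of the 5 peaks (rows), by total reads among all peaks (circles), total reads among peaks on protein-coding genes (squares), reads per base (diamonds) and the lower strand count (triangles). The symbols of SIZ1 peak 1 lie apart, at 7.76% by reads per base and at 97.3% or more by the rest.

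Peaks with the same deposited FDR tended to share a read count, either as the total or as the count of 1 strand, and the members fell differently in this respect. An FDR of 4.52%, that of PTR2, was also given to 15 other peaks, and 14 of these had 99 reads in total or on 1 strand; the PTR2 peak has 99 in total. An FDR of 3.05%, that of BT1, was given to 11 others, of which 10 had a count of 110. The BT1 peak has 110 as its reverse count, while its total is 278. An FDR of 4.85%, that of SIZ1 peak 2, was given to 16 others, of which 13 had a count of 98. SIZ1 peak 2 has 98 neither in total nor on a strand, and its 454 reads exceeded those of all 16, which ran from 98 to 274. The other peaks at this FDR without a count of 98 had deposited p-values from 0.0202 to 0.0955, and SIZ1 peak 2 had 0.594. For peaks with a count of 98 the deposited p-value was at most 5.17e-14. The FDR of NIA1 was shared by 3 peaks with 306 to 856 reads, and that of SIZ1 peak 1 by 1 peak, of 253 reads, on AT3G20350. No source used here says how the authors derived the FDR, so these are counts only.

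**Figure D5:**
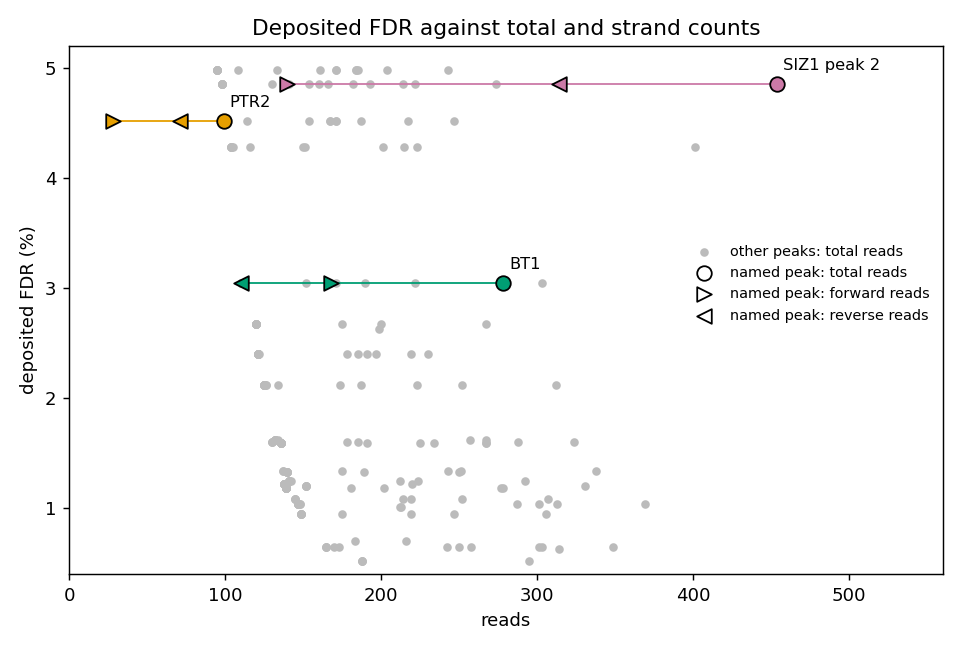
Deposited FDR in percent (y axis) against reads (x axis) for peaks with an FDR of at least 0.5%; grey points are the total reads of other peaks, and for BT1, PTR2 and SIZ1 peak 2 a line joins the total (circle), forward (right-pointing) and reverse (left-pointing) counts. The lowest totals at each FDR form the left edge of the grey points; PTR2 meets that edge with its total of 99 and BT1 with its reverse count of 110, while all 3 counts of SIZ1 peak 2 lie to the right of it.

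Other genes of the same pathways were then looked up in the list. Of 117 genes in 7 lists, leaving the members out, 1 was overlapped by a peak (0.855%, exact binomial 95% interval 0.0216 to 4.67), against 1.05% of all nuclear protein-coding genes (288 of 27444), so the share was near the background. That gene was NLP3 (AT4G38340), a member of the NIN-like protein family of transcription factors, best known for the nitrate response regulator NLP7. The 28 bp under it ran over chromosome 4, 17955610 to 17955638. They held 139 reads, made up of 83 forward and 56 reverse reads, at an FDR of 1.19% (p-value 0). It ranked 342 of 439 by reads, below NIA1, BT1 and both SIZ1 peaks and above PTR2. NLP3 was the 1 gene overlapped among 25 of nitrate signalling, and the other entries there, NLP7 among them, named no peak.

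Within assimilation, none of the 27 genes beside NIA1 was overlapped, a list that holds NIA2, the nitrite reductase gene NIR1, and the glutamine synthetase, glutamate synthase, asparagine synthetase and molybdenum cofactor genes. No peak overlapped the 23 genes of nitrate transport, which include NRT1.1 and NRT2.1, or the 6 ammonium transporter genes. The same held for the other 4 BTB and TAZ domain genes, BT2 among them, and for the 14 peptide transporter genes beside PTR2, among them PTR4, its close homologue at the vacuolar membrane. In the SUMO pathway none of the 18 genes beside SIZ1 was overlapped. They include the SUMO genes, the activating and conjugating enzymes, the proteases and another ligase gene, HPY2. Lists of these sizes are too short to tell a count of 0 from the background of 1.05%. No list gene was added when genes within 1000 bp or 3000 bp in the neighbour columns were counted (backgrounds 1.17% and 1.32%), but those columns leave out adjacent genes, as at SIZ1.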

How the data were processed

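The values come from 1 peak list that the authors deposited, a file of the whole series. The submitters' processing notes name the TAIR 9 build. No source used here gives the aligner, the peak caller or the use made of the wild-type library. Each peak has a deposited count of reads, per the file headers, and its forward and reverse counts summed to that total throughout. FDR was deposited as a percent. The deposited normalized difference, called strand imbalance here, is a fraction, equal to the absolute strand difference over the total within 1e-06 in 438 of the 439 peaks. Each peak's deposited p-value is of a test that no source used here names. Length equalled end minus start throughout, with 3 peaks of length 0, counted as 1 bp for reads per base.

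Annotation text over several lines was joined (177 lines). Gene names were looked up, as locus or as symbol and within the chromosome of the peak, in a RefSeq table of TAIR10.1, with 352 of 354 loci found. That table gave names, lengths and gene order, and its coordinates were not set against the peaks. Members and gene lists were chosen with earlier results of these data known. Genes named are the members, genes in the entries of their peaks, nearest peaks, list genes with a peak, closest paralogs and, for each member peak, the 2 peaks on protein-coding genes with the closest read total; genes with 2 peaks and adjacent RefSeq loci were named after their values were seen. Since members were chosen from the list and each genotype had 1 library, no test was run. Intervals are exact Poisson and exact (Clopper-Pearson) binomial, at 95%. Reading of the list was checked on a made-up list. Alternatives were an FDR under 1%, a p-value of at most 0.05, neighbours within 1000 or 3000 bp, the overlap column alone, and other rankings. Promoter motifs were not searched and no sequence was used. Python 3.11.15, SciPy 1.17.1, NumPy 2.4.6 and Matplotlib 3.10.9 were used.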

Additional observations from a re-analysis of the deposited data

How the results depend on the processing

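No paired analysis was possible because there was 1 library of each genotype, with no replicate numbers. All 4 member genes kept a peak with the overlap column alone and with a p-value of at most 0.05, where SIZ1 kept peak 1 and lost peak 2; with an FDR under 1% there were 2, NIA1 and SIZ1. NLP3 stayed the 1 other list gene with a p-value of at most 0.05 (background 1.02%) or with neighbours within 1000 (1.17%) or 3000 bp, and 0 were left with an FDR under 1% (0.492%). As shares of other peaks with a lower value, NIA1 moved to 86.5% by the lower strand count. Among peaks on protein-coding genes SIZ1 peak 1 moved to 99.3% and SIZ1 peak 2 to 97.2%, by the lower strand count to 97.7% and 83.3%, and by reads per base SIZ1 peak 1 moved to 7.76%, where its length of 472 bp enters by construction. The other 9 shares stayed within the range that counting error of the reads allows. The search for promoter motifs was not run, since no promoter sequence was at hand. Unknown depth limits every read total.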

Other observations

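The sharing of a count at the same FDR was also looked at beyond BT1, PTR2 and NLP3, for FDR values given to 5 peaks or more. The list holds 101 distinct FDR values. Of these, 32 were each given to 5 peaks or more, 298 peaks in all. In 237 of the 298 (79.5%) the commonest count at that FDR was the peak's total or one of its strand counts, as the total in 151 and on a strand alone in 86. At the FDR of the NLP3 peak, 10 of 12 other peaks had a count of 139, which is the NLP3 total. Peaks at FDR values given to fewer peaks were not counted. These numbers are a description made after the values were seen. The commonest count was taken from the same peaks, with counts of 3 kinds per peak. Some matches therefore arise without any link, and how many was not estimated.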
